A study of Mus musculus with 24 samples.

Results

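Neighbouring genes were followed along the 19 autosomes of p53-altered mouse astrocytes, to see where whole chromosomes or long segments were expressed higher or lower in a line that carries mutant p53 than in p53 KO cells of the same culture. The genome of GRCm38 was divided into fixed windows of 5 Mb counted from position 0 of each chromosome, each gene was placed by its GENCODE M21 start, and windows with 5 or more genes of the count table were kept. This gave 465 windows of 499 that held any gene, with 13683 genes in them. The value of a window was the median over its genes of the log2 mean CPM (counts scaled to the size of the library) of a mutant line minus that of the p53 KO of its culture. A window held 5 to 130 genes, with a median of 23. Chromosome 1 held 35 of the windows, chromosome 4 held 31, chromosome 8 held 26, chromosome 12 held 22, chromosome 14 held 19 and chromosome 19 held 13. The 34 windows with 1 to 4 genes, with 89 genes in all, were left out.

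Gain or loss of a chromosome changes the copies of all its genes at once, and the RNA of many of them follows the copies in part, so that a run of neighbours moves together. Cells without functional p53 tolerate such gains and losses better than normal cells, because p53 arrests or kills many cells after faulty divisions. Runs of neighbours can also move together through shared chromatin or through transcription factors. DNA copies were not measured in these libraries, and all values below are RNA. For scale only, 3 of 4 copies correspond to a log2 ratio of -0.42, 5 of 4 copies to 0.32, 3 of 2 copies to 0.58 and 1 of 2 copies to -1.

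RNA was sequenced from 24 libraries of 8 lines, with 3 replicates a line that the study's methods describe as independent thaws and platings. The lines came from 1 male (m1) and 1 female (f1) culture of cortical astrocytes from C57BL/6 pups of postnatal day 1, each pooled from several pups, and were used at passages 10 to 15. All lines started from cells with 1 floxed and 1 null Trp53 allele, received a Cre lentivirus with puromycin resistance, and were grown in DMEM/F12 with serum. The p53 KO lines have this treatment alone, and in the 6 mutant lines a retrovirus with an eGFP marker adds Trp53 R172H, Y202C or Y217C in cells sorted for GFP. The replicates measure the spread within a line. Each line is a single derivation per culture, so that sex, pool of pups and derivation cannot be told apart. Within a culture, a mutation cannot be told apart from its derivation, nor from the retrovirus and GFP sort that the p53 KO lines lack. In these bulk libraries fewer cells of a kind and less RNA per cell cannot be told apart either.

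Total counts ranged from 52787288 to 136503809 a library. Trp53 was at 46.5 to 53.7 CPM in the 6 p53 KO libraries and at 572 to 3870 CPM in the 18 mutant libraries, so every library was on the side its label gives. All 10 astrocyte markers were in the table, with summed levels of 227 to 685 CPM. Much of the sum came from Sox9 (line means of 79.96 to 182.5 CPM) and Gja1 (80.99 to 221.5 CPM). The line means of Gfap, a filament protein of mature astrocytes, were under 0.3 CPM in 7 of the 8 lines and 6.93 CPM in male p53 Y217C. The other markers varied between lines. Line means were at most 1.28 CPM for S100b, 0 to 8.06 CPM for Aqp4, 0.174 to 7.82 CPM for Slc1a2 and 0.774 to 5.77 CPM for Aldoc. Glul was at 25.36 to 65.85 CPM and Aldh1l1 at 0.0546 to 56.59 CPM. Slc1a3 ranged from 3.14 CPM in female p53 Y217C to 105.6 CPM in male p53 Y217C and 281.1 CPM in female p53 R172H. Of the microglial markers 1 of 6 was in the table (0.198 to 3.18 CPM summed), of the oligodendrocyte lineage 3 of 6 (61.5 to 335 CPM), of neurons 3 of 5 (31.3 to 137 CPM), of endothelium 1 of 3 (0.17 to 35.5 CPM) and of fibroblasts and mural cells 6 of 6 (10100 to 44700 CPM, mostly collagen genes). Their part in the window values was not tested. The female p53 KO stood apart on chromosome 8 from the other 7 lines, which touches every female comparison there, and counts of windows are therefore also given without chromosome 8.

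On chromosome 8 of the female p53 KO expression changed from high to low between Got2, the mitochondrial aspartate aminotransferase (chr8:95864134-95888547, GRCm38, minus strand), and Cdh11, a cell adhesion cadherin (chr8:102632095-102785642, minus strand), which are neighbours among the protein-coding genes at or above 1 CPM with 6.74 Mb between them. A promoter from each side is shown, 250 bases up to the start of the gene from RefSeq on GRCm38.p6, with each CG dinucleotide in capitals. Starts in RefSeq can differ from the GENCODE coordinates above, and the stretch shown for Got2 overlaps the span given there. Got2 is on the high side (chr8:95888402-95888651, minus strand), and Tk2, a mitochondrial thymidine kinase, lies beyond Cdh11 on the low side and is shown in place of it (chr8:104248559-104248808, minus strand).
Got2: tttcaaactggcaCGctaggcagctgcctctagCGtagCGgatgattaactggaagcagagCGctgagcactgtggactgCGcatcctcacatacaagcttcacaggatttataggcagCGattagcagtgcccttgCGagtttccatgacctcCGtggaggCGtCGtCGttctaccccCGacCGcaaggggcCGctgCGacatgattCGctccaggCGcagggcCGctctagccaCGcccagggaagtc
Tk2: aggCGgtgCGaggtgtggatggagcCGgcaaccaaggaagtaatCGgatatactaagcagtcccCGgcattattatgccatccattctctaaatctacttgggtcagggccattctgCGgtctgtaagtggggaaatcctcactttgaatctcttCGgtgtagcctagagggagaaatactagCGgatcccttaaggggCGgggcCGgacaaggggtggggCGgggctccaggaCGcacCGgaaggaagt
They held 19 and 13 CG dinucleotides, against a median of 6 over 32851 promoters of this length (quartiles 2 and 16). Both genes were expressed in all 8 lines. Got2 was at 431 ± 13.1 CPM (SD, n = 3) in the female p53 KO and at line means of 183 to 249 CPM in the other 7 lines, while Tk2 was at 11.1 ± 0.433 CPM in the female p53 KO and 12.3 to 23.3 CPM elsewhere. These genes, and the other genes named beside an edge, were chosen after their values were seen.

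Window values were spread most widely in male p53 Y202C (SD over 465 windows of 0.28) and least in male p53 R172H (0.15), with SDs of 0.23 to 0.24 in the other 4 lines. A window was called shifted at a limma adjusted p of 0.05 or less (Benjamini-Hochberg over 465 windows, on the window medians of the libraries) and an absolute value of 0.3 or more. By this rule 5 windows (1.08%) of male p53 R172H were shifted up and 14 (3.01%) down. Male p53 Y202C had 66 up (14.2%) and 55 down (11.8%), and male p53 Y217C had 40 up (8.6%) and 31 down (6.67%). Female p53 R172H had 33 up (7.1%) and 42 down (9.03%), female p53 Y202C had 34 up (7.31%) and 43 down (9.25%), and female p53 Y217C had 27 up (5.81%) and 55 down (11.8%). Male p53 R172H thus had the fewest shifted windows and male p53 Y202C the most.

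The split into up and down depended on scaling. With plain library sizes in place of TMM factors it was 2 up and 24 down in male p53 R172H, 74 and 16 in male p53 Y217C, 51 and 26 in female p53 Y202C, and 50 and 48 in female p53 Y217C. In female p53 R172H it was 39 up and 37 down with DESeq2 size factors and 39 and 39 after centring on the median of all autosomal genes, and in male p53 Y202C 60 and 60 after centring. Over all autosomal genes the median log2 difference lay between -0.014 and 0.011 with TMM and between -0.022 and 0.095 with plain library sizes. Without chromosome 8 the counts of shifted windows among 439 were 19, 117 and 64 in male p53 R172H, Y202C and Y217C, and 66, 63 and 70 in the female lines in the same order.

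**Figure D1:**
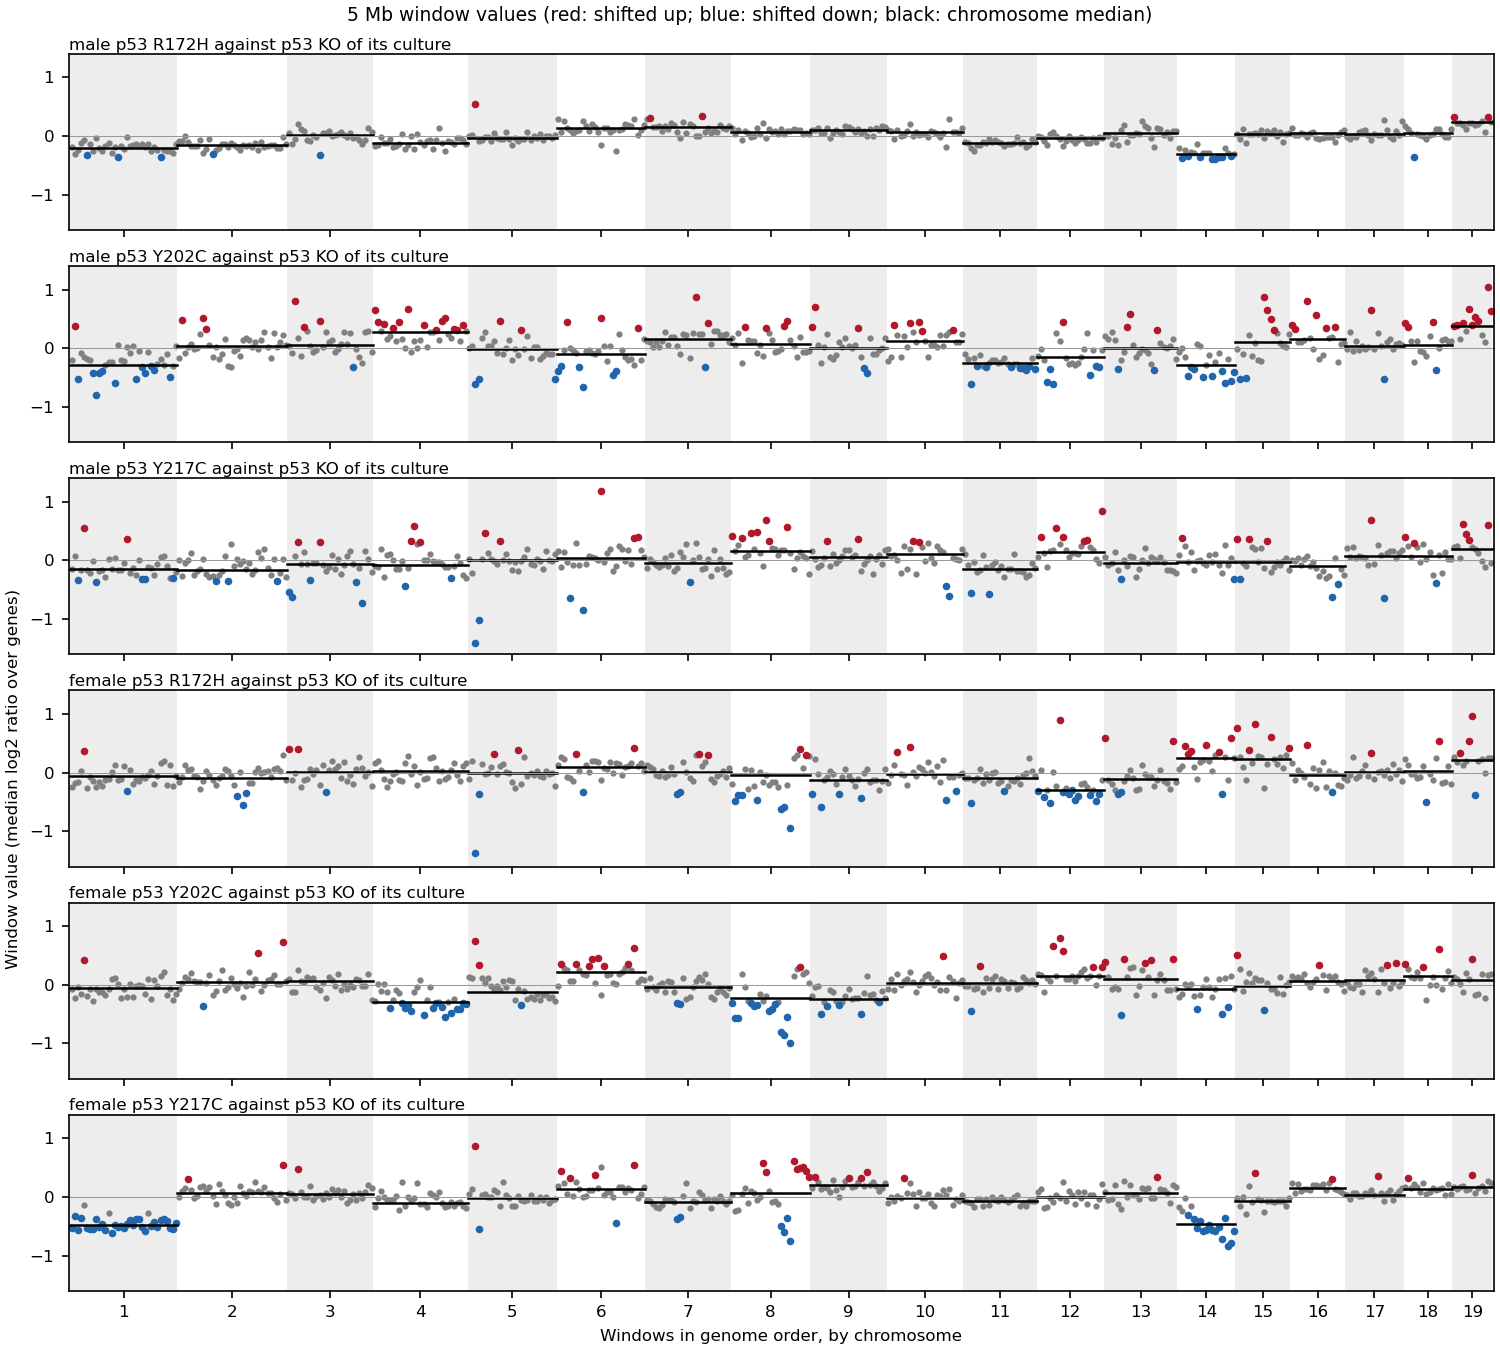
Each point is the value of a 5 Mb window (y axis, median log2 ratio over genes to the p53 KO of the same culture), with the windows in genome order by chromosome on the x axis and 1 panel per mutant line. Red and blue points are shifted up and down, grey points are not, and black bars are the chromosome medians over genes. The blue runs over chromosomes 1 and 14 of female p53 Y217C, with 32 of 35 and 15 of 19 windows shifted down, stand out from the scattered points elsewhere.

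The 6 lines differed in how their windows were arranged. The share of the variance of window values that lay between chromosomes was 67.3% in male p53 R172H and 58.7% in female p53 Y217C, against 37% in male p53 Y202C, 36.1% in female p53 Y202C, 22.9% in female p53 R172H and 20% in male p53 Y217C. Neighbouring windows were correlated in the same order at the top, with Pearson r over 446 pairs of 0.659 in male p53 R172H, 0.647 in female p53 Y217C, 0.435 in female p53 Y202C, 0.412 in male p53 Y202C, 0.276 in male p53 Y217C and 0.234 in female p53 R172H. These are descriptions, since neighbours share a library and a chromosome. So most of the variance lay between chromosomes in male p53 R172H and female p53 Y217C, and within chromosomes in the other 4 lines.

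A chromosome was called shifted as a whole when its median over genes differed from the p53 KO at an adjusted p of 0.05 or less with an absolute value of 0.3 or more, and 2 in 3 or more of its windows were shifted the same way. This held for 2 of 19 chromosomes (10.5%) in female p53 Y217C, 1 and 14, both lower, and for 1 of 19 (5.26%) in male p53 Y202C, chromosome 19, higher. It held for 0 of 19 (0%) in each of the other 4 lines, where limma's adjusted p alone was at 0.05 or less for many chromosomes because replicates lay close together. Within a mutant line, the 3 libraries differed on a chromosome's median against p53 KO by at most 0.0913 (female p53 Y202C, chromosome 7), and the median range over chromosomes was 0.0125 to 0.052. With protein-coding genes alone, 2 more chromosomes passed, chromosome 14 in male p53 R172H (median -0.32, 13 of 18 windows) and chromosome 4 in male p53 Y202C (0.34, 21 of 28 windows). Chromosome 19 in male p53 Y202C was not called with a pseudocount of 1 CPM, with summed CPM or with 1 gene per symbol stem. With plain library sizes chromosome 14 was not called in female p53 Y217C (-0.38) and was called in male p53 R172H (-0.34). Chromosome 1 in female p53 Y217C was called under all of these alternatives.

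**Figure D2:**
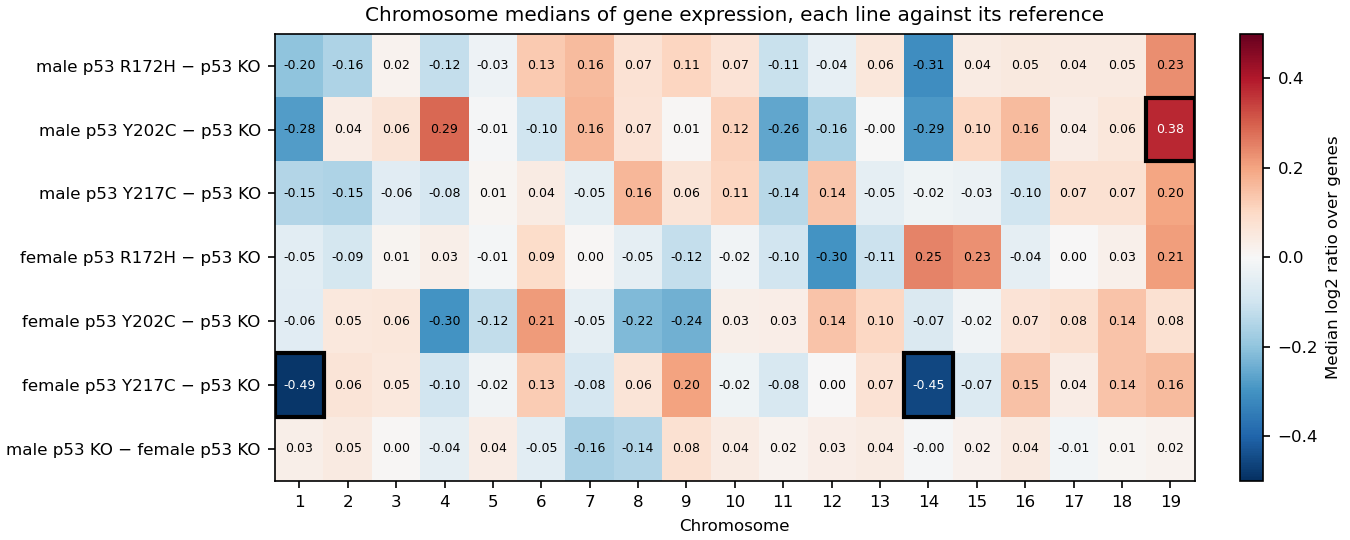
The heat map gives for each autosome (x axis) the median over genes of the log2 ratio of each mutant line to the p53 KO of its culture, and in the bottom row of male to female p53 KO, with the value printed in each cell. Boxes mark the 3 chromosomes called shifted as a whole: chromosome 19 in male p53 Y202C (0.38), and chromosomes 1 (-0.49) and 14 (-0.45) in female p53 Y217C.

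Single genes were tested with edgeR's quasi-likelihood test at an adjusted p of 0.05 over all genes, and the shares called among 13772 autosomal genes are the background for the counts by chromosome. Male p53 R172H had 2753 higher (20%) and 2908 lower (21.1%). In male p53 Y202C 37.8% were higher and 35.4% lower, and in male p53 Y217C 34.5% and 36.2%. In female p53 R172H 34.1% were higher and 35.8% lower, in female p53 Y202C 34.1% and 34.7%, and in female p53 Y217C 27.7% and 29.3%.

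Chromosome 1 was lower along its whole length in female p53 Y217C. The chromosome medians of the 3 libraries were -0.51, -0.47 and -0.49, while the female p53 KO libraries lay between -0.0093 and 0.0038. The line median over 849 genes was -0.49 (SE 0.012, limma adjusted p = 4.31e-24), which is 0.714 times the p53 KO level. All 35 windows were below 0, from -0.62 to -0.14, and 32 were shifted down. The 3 windows that were not shifted, at 20 to 25, 65 to 70 and 140 to 145 Mb, had values of -0.14, -0.28 and -0.28, and they cut the chromosome into segments at 0 to 20 Mb (median -0.44), 30 to 65 Mb (-0.54), 70 to 140 Mb (-0.51) and 150 to 195 Mb (-0.46).

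The shift was carried by most genes of chromosome 1 and not by a few. Of 849 genes, 592 were lower (69.7%, background 29.3%) and 60 higher (7.07%, background 27.7%), and the quartiles of gene values were -0.73 and -0.20. Genes of middle and high expression had medians of -0.51 and -0.55 with 90.8% and 91.8% of them below 0, and genes of low expression had -0.34 with 68.5% below 0. The other autosomes had medians of 0.05, -0.03 and 0.06 for the middle, high and low classes. The 720 protein-coding genes had a median of -0.53, against 0.15 for the 129 genes of other types, such as pseudogenes and noncoding RNAs. Why they differed was not tested. On the other autosomes the medians of the same 2 kinds were 0.0089 and 0.13.

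Highly expressed genes of the extracellular matrix were among those lower on chromosome 1. Fn1, which encodes fibronectin, was at 7136 ± 109 CPM in female p53 Y217C and 11510 ± 186 CPM in female p53 KO (log2 fold change -0.69, SE 0.05, adjusted p = 2.05e-10). Col3a1, a fibrillar collagen, was at 1103 ± 27.6 against 1538 ± 101 CPM. Tfap2b, an AP-2 transcription factor, was at 0 in all 3 libraries of female p53 Y217C and at 23.5 ± 1.39 CPM in female p53 KO, and Hmcn1, a matrix protein of the hemicentin family, was at 0.0268 ± 0.0255 against 10.2 ± 0.218 CPM. A few genes went the other way, such as Sp100, a nuclear body protein, at 0.717 ± 0.095 against 0.151 ± 0.0263 CPM. Of the cancer genes on the chromosome, Mdm4, an inhibitor of p53, was lower (log2 fold change -0.68, adjusted p = 9.92e-07), whereas Bcl2, which blocks cell death, had -0.03 (adjusted p = 0.797).

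The other 5 lines had smaller values on chromosome 1, all of them below 0 against their p53 KO with TMM scaling, although female p53 Y202C was at 0.01 with plain library sizes. The medians were -0.20 in male p53 R172H, -0.28 in male p53 Y202C and -0.15 in male p53 Y217C, and -0.05 in female p53 R172H and -0.06 in female p53 Y202C. With plain library sizes male p53 Y217C was at -0.04 and lost its call. Lines of the same culture share their p53 KO libraries, so these values are not independent. On a scale that takes the median of the 8 lines for each gene as 0, the p53 KO lines were the highest on this chromosome, at 0.13 in the male and 0.07 in the female, and female p53 Y217C was the lowest at -0.35. The effect of Y217C differed between the male and the female culture by 0.34 (SE 0.017, limma adjusted p = 6.85e-17 over 57 tests).

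**Figure D3:**
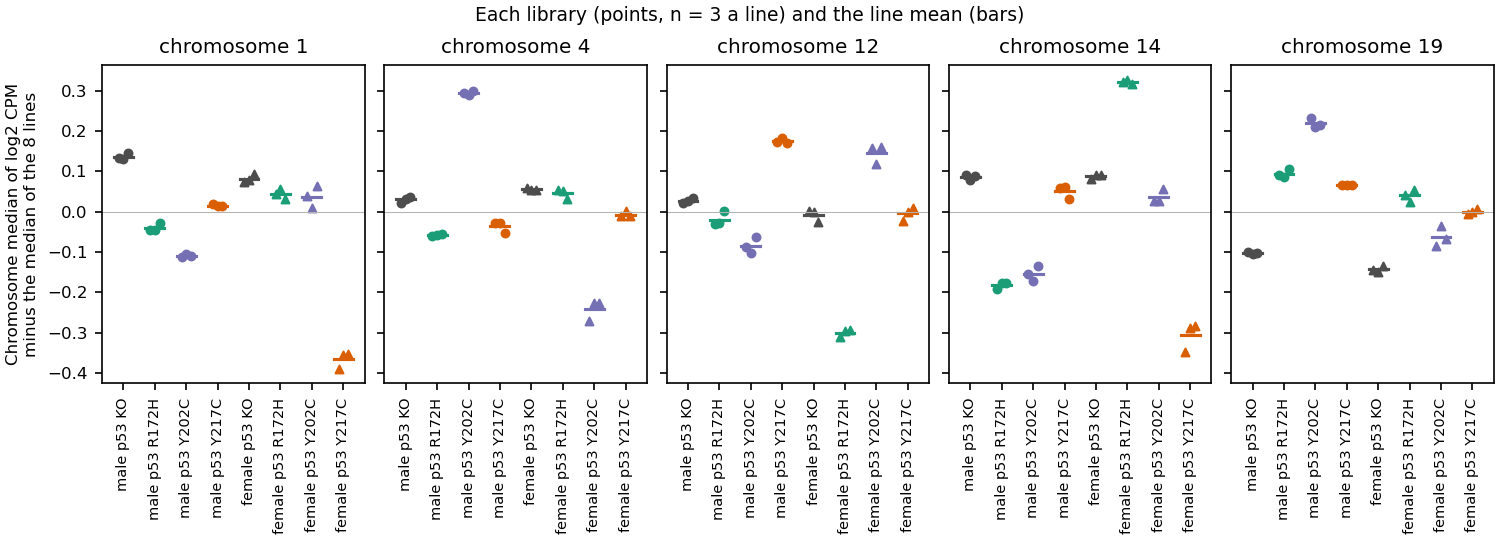
Points are single libraries (n = 3 a line) and bars are line means, for chromosomes 1, 4, 12, 14 and 19. The y axis is the chromosome median over genes of log2 CPM minus the median of the 8 lines, and the 8 lines are on the x axis, circles for the male and triangles for the female culture. The 3 points of a line nearly coincide, and female p53 Y217C on chromosome 1 lies at about -0.35, below all other lines.

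Chromosome 14 had medians between -0.45 and -0.29 in 3 lines and was higher in 1. In female p53 Y217C the library medians were -0.47, -0.46 and -0.44 and the line median was -0.45 (SE 0.011, adjusted p = 4.31e-24), or 0.73 times the p53 KO level. In male p53 R172H the libraries were at -0.32, -0.31 and -0.31 (line median -0.31), and in male p53 Y202C at -0.27, -0.30 and -0.29 (line median -0.29). Female p53 R172H was higher, with libraries at 0.25, 0.25 and 0.24. The p53 KO libraries of both cultures lay within 0.011 of 0, since values are taken against the mean of these same libraries. Separation from them therefore says little. Male p53 Y217C and female p53 Y202C were close to their p53 KO, at -0.02 and -0.07 (0.08 and -0.01 with plain library sizes). With TMM their libraries did not overlap with those of the p53 KO even at these small values, so non-overlap is not read as a shift here.

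The arrangement of windows along chromosome 14 differed among these lines. The shift was even in male p53 R172H, with all 19 windows below 0, a window SD of 0.069 and 86.7% of 496 genes below 0, and 8 windows passed the size of 0.3. There 63.3% of the genes were called lower (background 21.1%) and 1.81% higher (background 20%). In male p53 Y202C the windows were spread, with an SD of 0.20, 9 shifted down and 3 above 0, and 52.6% of the genes were lower (background 35.4%). In female p53 R172H 6 windows were shifted up and 1 down. Its segment of shifted windows at 15 to 30 Mb had a median of 0.37, and 51 of 68 genes there were higher (75%, background 34.1%).

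In female p53 Y217C the chromosome had a step near 31.7 Mb. The 6 windows up to 35 Mb had a mean of -0.21 and the 13 beyond it a mean of -0.58, and this split took 64.7% of the variance of the windows. Among protein-coding genes at or above 1 CPM between 20 and 50 Mb, the best split fell between Btd, which releases biotin (start 31641028), and Ankrd28 (start 31698768), 0.0302 Mb apart, with medians of -0.23 over 71 genes before and -0.56 over 52 genes after it. Of these, 58 and 48 were below 0. The place of the split was chosen from these values and no test was made of it. From 30 Mb to the end of the chromosome, 282 of 395 genes were lower (71.4%, background 29.3%), and the rest of the chromosome had a median of -0.20.

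Tpt1, an abundant growth-related protein, was at 797 ± 64.6 CPM in female p53 Y217C against 1409 ± 29.8 CPM in female p53 KO (log2 fold change -0.82, adjusted p = 1.41e-08). In male p53 R172H Tpt1 was at 1041 ± 30.9 against 1310 ± 39.3 CPM, a log2 fold change of -0.33 that is close to the median of its chromosome. Lats2, a kinase of the Hippo pathway, had log2 fold changes of -0.70 in female p53 Y217C (adjusted p = 6.99e-10) and -0.39 in male p53 R172H (adjusted p = 1.19e-05). It was also lower where its window was not, with -0.26 in female p53 R172H (window at 0.47) and -0.59 in female p53 Y202C (window at 0.10), and it had -0.29 in male p53 Y217C. Rb1, the retinoblastoma tumour suppressor, was lower in male p53 R172H (-0.51, adjusted p = 0.000839), had -0.18 in female p53 Y217C (adjusted p = 0.176), and was higher in male p53 Y202C (0.89, adjusted p = 1.26e-07), where its window was at -0.24. Clu, a secreted chaperone, rose in female p53 Y217C from 5.96 ± 0.946 to 17.9 ± 2.92 CPM, against the direction of the chromosome.

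The effect of R172H on chromosome 14 differed between the cultures by -0.56, male minus female (SE 0.015, limma adjusted p = 3.53e-22), and that of Y217C by 0.43 (SE 0.015, adjusted p = 2.36e-19). On the scale of the 8 lines female p53 R172H was the highest at 0.32 and female p53 Y217C the lowest at -0.30, with male p53 R172H at -0.16 and male p53 Y202C at -0.14. These lines stood on both sides of the p53 KO lines, which were at 0.07 and 0.08.

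**Figure D4:**
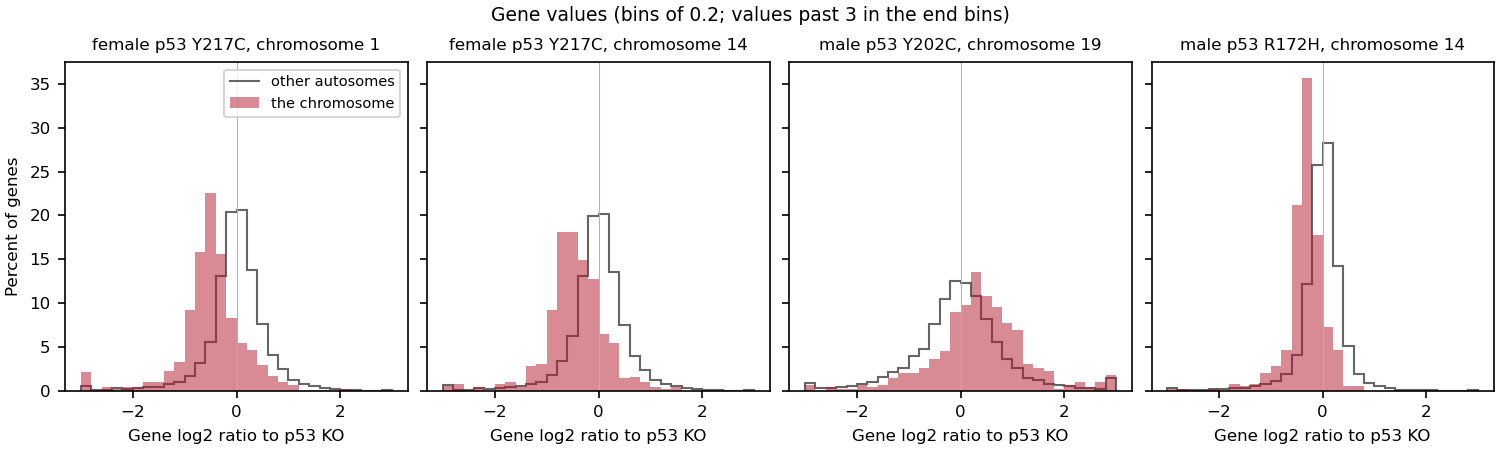
Histograms of gene log2 ratios to p53 KO (x axis, bins of 0.2) as a percent of genes (y axis), for 4 pairs of a line and a chromosome, with genes of the chromosome filled in red and genes of the other autosomes outlined in grey. On chromosome 1 of female p53 Y217C the whole distribution is displaced to the left of the outline, with quartiles of -0.73 and -0.20, and that of chromosome 19 in male p53 Y202C is displaced to the right and broad, with quartiles of -0.06 and 0.85.

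Chromosome 19 was higher than p53 KO in all 6 mutant lines, with TMM, DESeq2 and plain library size scaling alike. The library medians in male p53 Y202C were 0.40, 0.39 and 0.37, and the line median of 0.38 (SE 0.0099, adjusted p = 4.26e-23) was 1.3 times the p53 KO level. The line medians were 0.23 in male p53 R172H, 0.20 in male p53 Y217C, 0.21 in female p53 R172H, 0.16 in female p53 Y217C and 0.08 in female p53 Y202C, with adjusted p of 3.29e-07 or less in all of them. With plain library sizes female p53 Y202C was at 0.15 and male p53 Y217C at 0.30. Lines of a culture share their p53 KO libraries. On the scale of the 8 lines the 2 p53 KO lines were themselves the lowest, at -0.09 and -0.13, and male p53 Y202C stood at 0.22, the highest. For R172H the test of the difference between the cultures on the library medians gave a limma adjusted p of 0.8. The effect of Y202C differed by 0.298, male minus female (SE 0.014, limma adjusted p = 2.83e-17). That of Y217C differed by 0.036 (SE 0.014, limma adjusted p = 0.00811).

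Within chromosome 19 the lines differed in evenness. All 13 windows of male p53 R172H were above 0 with an SD of 0.07, and 264 of 489 genes were higher (54%, background 20%) and 29 lower (5.93%, background 21.1%). In male p53 Y202C all 13 windows were above 0 as well, 9 of them shifted, but the SD was 0.25 and the highest window, at 55 to 60 Mb, reached 1.04. That window holds 26 genes, among them Tcf7l2, a transcription factor of Wnt signaling, and 20 of the 26 were higher (background 37.8%). In the segment of male p53 Y202C at 25 to 45 Mb (median 0.48) 78 of 127 genes were higher (61.4%, background 37.8%). In male p53 Y217C the windows from 15 to 30 Mb were shifted up (median 0.42). In female p53 R172H, where the chromosome median was 0.21, the window at 30 to 35 Mb reached 0.96. There 21 of 28 genes were higher (background 34.1%).

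Single genes on chromosome 19 ranged widely around these medians. In male p53 Y202C Ahnak, a very large scaffold protein, was at 4781 ± 540 CPM against 1580 ± 42.4 CPM in male p53 KO (log2 fold change 1.60, SE 0.11, adjusted p = 6.12e-12), and Vldlr, a lipoprotein receptor, at 334 ± 5.53 against 49.9 ± 6.15 CPM. Scd2, a fatty acid desaturase, was lower at 1002 ± 66.2 against 1849 ± 105 CPM, and Acta2, smooth muscle actin, had a log2 fold change of 0.06 (adjusted p = 0.407). Fas, a death receptor and known p53 target, was higher in all 6 lines, by log2 fold changes of 0.49 to 2.55.

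Chromosome 4 moved in opposite directions in the 2 lines with Y202C. In male p53 Y202C the libraries were at 0.29, 0.29 and 0.27 (line median 0.29, SE 0.011), and in female p53 Y202C at -0.33, -0.30 and -0.30 (line median -0.30). The difference of 0.58 (SE 0.016, adjusted p = 2.24e-22) was the largest of the 57 tested. The other 4 lines were between -0.12 and 0.03. In the male line 13 of 31 windows were shifted up and 0 down, with 53.4% of 938 genes higher (background 37.8%). In the female line 15 were shifted down and 0 up, with 54.7% of the genes lower (background 34.7%). Highly expressed genes had a median of -0.43 in female p53 Y202C, against -0.14 for genes of low expression. The other autosomes of this line had a like gradient, with medians of -0.09 and 0.14 for the same classes.

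Female p53 Y202C had 2 segments on this chromosome, at 50 to 70 Mb (median -0.39) and at 140 to 160 Mb (-0.35). Of their genes, 39 of 67 (58.2%) and 106 of 181 (58.6%) were lower, against a background of 34.7%. Tnc, the matrix protein tenascin C, lies in the former segment and was at 316 ± 6.56 CPM against 1526 ± 48.8 CPM in female p53 KO. In the latter, the glycolytic enzyme gene Eno1 was at 699 ± 72.7 against 1625 ± 45.9 CPM, and Gnb1, a G protein subunit, at 343 ± 24.4 against 671.6 ± 11 CPM. Isg15, an interferon-induced gene, went the other way, at 24.3 ± 3.7 against 4.4 ± 0.124 CPM. The tumour suppressor locus with Cdkn2a, Cdkn2b and the adjacent metabolic gene Mtap was in a window at -0.52. There Cdkn2a (log2 fold change -0.62, adjusted p = 3.25e-05) and Mtap (-0.61, adjusted p = 7.67e-10) were lower and Cdkn2b was higher (0.38, adjusted p = 0.000101). In male p53 Y202C that window was at 0.40, and Cdkn2a was nevertheless lower (-0.56, adjusted p = 8.9e-05).

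The other measured cancer genes of chromosome 4 in female p53 Y202C ranged widely. Cdkn2c, an inhibitor of the cell cycle, had a log2 fold change of -0.30 (adjusted p = 0.000142) in a window at -0.32, close to the chromosome median. Mycl, a relative of Myc, had a log2 fold change of -1.24 (adjusted p = 4.11e-11) in a window at -0.55. Jun, a subunit of AP-1, had -0.60 (adjusted p = 1.19e-07) in a window at -0.04. Ptprd, a receptor phosphatase, had -3.18 (adjusted p = 1.24e-17) in a window at -0.03, so that large changes of single genes also lay in windows that did not move.

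Chromosome 12 was lower in female p53 R172H, with libraries at -0.30, -0.31 and -0.32 and a line median of -0.30 (SE 0.014, adjusted p = 3.48e-17). Of its 22 windows 11 were shifted down and 1 up, and 273 of 494 genes were lower (55.3%, background 35.8%). In the segment at 55 to 80 Mb the median was -0.39 and 69 of 107 genes were lower (64.5%, background 35.8%). The 1 window shifted up, at 35 to 40 Mb, was at 0.90, and 8 of its 10 genes were higher (background 34.1%). It holds Ahr, the aryl hydrocarbon receptor, and the transcription factor genes Etv1 and Meox2. The same window was at 0.80 in female p53 Y202C, which shares the p53 KO libraries, and on the scale of the 8 lines the female p53 KO was the lowest there at -0.30.

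The measured cancer genes of chromosome 12 were all lower in female p53 R172H. Over the whole list, 39 of 64 measured genes were called lower in this line (all genes tested 35.3%), with a median log2 fold change of -0.25. Max, the partner of Myc, had a log2 fold change of -0.59 (adjusted p = 2.41e-10), Dicer1, which processes microRNAs, -0.80, the transcription factor gene Yy1 -0.57, the signaling adaptor gene Traf3 -0.47 and the growth kinase gene Akt1 -0.62. Mycn, another relative of Myc, had -1.85 at low levels, 1.6 ± 0.232 against 5.79 ± 0.139 CPM. These 6 genes are all the measured members of the cancer list on chromosome 12, and each fell by more than the chromosome median of -0.30. Highly expressed genes of the chromosome had a lower median, -0.47, against -0.09 for that class on the other autosomes.

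The other lines had smaller or opposite values on chromosome 12. Male p53 Y217C was at 0.14 with 6 windows shifted up, the highest of them at 115 to 120 Mb (0.85). Female p53 Y202C was at 0.14 with 5 windows shifted up. Male p53 Y202C was at -0.16, and its windows from 15 to 30 Mb were shifted down (median -0.37). The abundant Pdia6, a folding enzyme of the endoplasmic reticulum, was at 241 ± 4.3 against 531 ± 10.7 CPM there. The effects of Y202C differed between the cultures by -0.30 on this chromosome (SE 0.02, adjusted p = 3.05e-13). Male p53 R172H (-0.04) and female p53 Y217C (0.00) had no shifted window on it.

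On chromosome 8 the female p53 KO differed from the male p53 KO. Of 465 windows 2 were shifted up (0.43%) and 11 down (2.37%) in male against female p53 KO, and 12 of these 13 were on chromosome 8. The 4 windows from 80 to 100 Mb were at -0.82, -0.79, -0.72 and -0.96, and over their 154 genes 119 were lower in the male p53 KO and 6 higher. The 6 windows beyond 100 Mb were at 0.12 to 0.30, with 151 of 254 genes higher in the male p53 KO and 3 lower. From 0 to 80 Mb of the same chromosome, 19 of 376 genes were higher and 216 lower. A background over all autosomal genes is not given for this comparison. For scale, on chromosome 14 from 0 to 35 Mb 19 of 138 genes were higher in the male p53 KO and 22 lower. Beyond 35 Mb of chromosome 14, 61 of 347 genes were higher and 48 lower.

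The scale of the 8 lines showed which p53 KO was the unusual one. From 80 to 100 Mb the female p53 KO libraries were at 0.54, 0.56 and 0.57, and the other 7 lines had values between -0.15 and 0.10. The female p53 KO was the highest of the 8 lines in 59.1% of the genes. From 100 to 130 Mb its libraries were at -0.24, -0.26 and -0.26, the other lines were between -0.05 and 0.22, and it was the lowest line in 37.8% of the genes. From 0 to 80 Mb it was at 0.14, beside female p53 Y217C at 0.12.

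**Figure D5:**
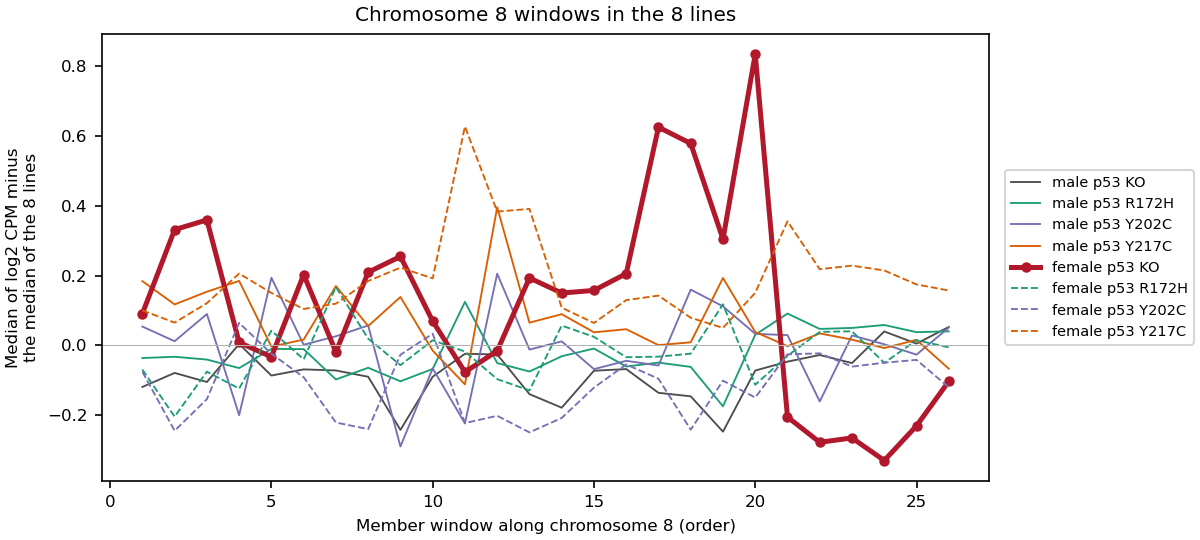
The 26 windows of chromosome 8 in order along the chromosome (x axis), with the median over genes of log2 CPM minus the median of the 8 lines on the y axis and 1 curve per line. The female p53 KO (thick red curve) rises to between 0.30 and 0.84 in the windows from 80 to 100 Mb. Beyond them it drops to between -0.33 and -0.10. Over all genes from 80 to 100 Mb the other 7 lines were between -0.15 and 0.10. From 100 to 130 Mb they were between -0.05 and 0.22.

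The high stretch of the female p53 KO had an edge on each side. At the lower edge, the best split of protein-coding genes fell between Slc10a7, a solute carrier (start 78509346), and Lsm6, an RNA-binding protein of the Sm family (start 78804865), with medians of 0.16 over 117 genes before and 0.66 over 86 genes after it. At the upper edge, between Got2 and Cdh11, the median went from 0.47 over 48 genes, 39 of them above 0, to -0.29 over 85 genes, 79 of them below 0. No gene of this class lies in the 6.74 Mb between them, so the edge could not be placed more closely. Cnot1, the scaffold of a deadenylase complex, was at 708.6 ± 18.6 CPM in female p53 KO and 335 ± 9.59 CPM in male p53 KO (log2 difference -1.08 male minus female), and Csnk2a2, a catalytic subunit of casein kinase, at 143 ± 2.05 and 68.4 ± 3.17 CPM.

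The 3 female mutant lines therefore all had low values from 80 to 100 Mb against their p53 KO, -0.54 in R172H, -0.78 in Y202C and -0.53 in Y217C, and high values from 100 to 130 Mb, at 0.31, 0.22 and 0.48. They share the female p53 KO libraries. On the scale of the 8 lines the same 3 lines were at -0.02, -0.14 and 0.10 from 80 to 100 Mb. In the male lines the values against male p53 KO were 0.09, 0.25 and 0.23. Beyond 100 Mb female p53 Y217C was also the highest of the 8 lines at 0.22. There 197 of 254 genes were higher than in female p53 KO (77.6%, background 27.7%). Among them was Rpl13, a ribosomal protein gene, at 1219 ± 30.2 against 824 ± 17.4 CPM. Wwox, a tumour suppressor gene in a fragile site, was at 16.3 ± 1.08 against 7.09 ± 0.295 CPM (adjusted p = 2.97e-11). It was higher than p53 KO in all 6 lines, by 0.36 to 0.99 on the log2 scale in the other 5, and in the male lines its window was at 0.11 to 0.18.

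In female p53 Y202C chromosome 8 had 3 more segments of low windows against the p53 KO, at 0 to 15 Mb (median -0.39), 30 to 45 Mb (-0.33) and 60 to 75 Mb (-0.35), and female p53 R172H had 1 at 5 to 20 Mb (-0.39). The basement membrane collagen genes Col4a1 and Col4a2 lie near its start. Col4a1 was at 4315 ± 95.9 CPM in female p53 KO, 1707 ± 60.5 CPM in female p53 R172H and 2031 ± 120 CPM in female p53 Y202C. In the window at 10 to 15 Mb the male p53 KO was also below the female p53 KO, by 0.51.

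Elsewhere, male p53 Y202C had a step on chromosome 15. The 9 windows up to 60 Mb had a mean of -0.15 and the 9 beyond it a mean of 0.33. The windows from 60 to 80 Mb formed a segment with a median of 0.35 and 91 of 152 genes higher (59.9%, background 37.8%). The window at 60 to 65 Mb, with 7 genes, was at 0.87 and holds Myc, a driver of cell growth (chr15:61985391-61990374, GRCm38). Myc was at 402 ± 14.8 against 220.5 ± 19.2 CPM (log2 fold change 0.87, adjusted p = 5.51e-12). Myh9, a non-muscle myosin gene, was at 5195 ± 528.5 against 4208 ± 23.1 CPM in the same segment, and Lgals1, which encodes galectin, was lower at 1824 ± 139 against 2222 ± 76.9 CPM.

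Other long runs in male p53 Y202C were lower, at 40 to 60 Mb of chromosome 1 (median -0.44), 20 to 35 Mb of chromosome 14 (-0.37) and 95 to 115 Mb of chromosome 11 (-0.35). On chromosome 11 the import receptor gene Kpnb1 was at 553 ± 18.7 against 922 ± 64.2 CPM and the caveolar gene Cavin1 at 484 ± 20.5 against 885 ± 0.291 CPM. On chromosome 1 the run holds Col3a1 at 765 ± 39 against 2390 ± 237 CPM and Col5a2 at 1079 ± 90.4 against 2159 ± 128.5 CPM, neighbouring collagen genes, while Pou3f3, a neural transcription factor gene, was higher at 116 ± 3.54 against 23 ± 2.06 CPM. In female p53 Y202C chromosome 5 had a step at 80 Mb, from a mean of 0.11 over 15 windows to -0.21 over 14, and chromosomes 6 and 9 had medians of 0.21 and -0.24. Chromosome 15 was at 0.23 in female p53 R172H and chromosome 9 at 0.20 in female p53 Y217C.

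Windows of few genes reached large values in several lines. The window at 10 to 15 Mb of chromosome 5, with 5 genes of which Sema3a, Sema3e and Sema3d encode secreted guidance proteins, was shifted in all 6 lines. In male p53 Y217C its libraries were at -1.37, -1.57 and -1.44 (line value -1.41), and in female p53 R172H at -1.49, -1.52 and -1.39 (line value -1.37). It was at -0.60 in male p53 Y202C and higher than p53 KO in male p53 R172H (0.54), female p53 Y202C (0.75) and female p53 Y217C (0.86). In male p53 Y217C the window at 75 to 80 Mb of chromosome 6, also with 5 genes, was at 1.19. A line value uses the mean CPM of its libraries and can lie just outside the range of the library medians.

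Windows with 5 to 10 genes, 68 in number, had SDs of 0.18 to 0.37 over the lines, and the 206 windows with 26 or more genes had SDs of 0.15 to 0.24. In male p53 Y217C 30.9% of the former and 5.34% of the latter were shifted, against 25% and 15.5% in female p53 Y217C. At the limit of 5 genes, the 13 windows with 5 genes ranged from -1.41 to 1.19 in male p53 Y217C and from -0.29 to 0.54 in male p53 R172H, and the 9 windows with 4 genes, which were not used, from -1.33 to 0.62 and from -0.36 to 0.08. Window values had Pearson correlations of -0.049 to 0.0739 with the number of genes and -0.139 to 0.12 with the median expression of a window, over 465 windows.

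The 2 lines with the same mutation had little in common across windows. Pearson r between the male and the female line over 465 windows was 0.0534 for R172H, -0.111 for Y202C and 0.179 for Y217C, and Spearman rho was 0.123, -0.0935 and 0.243. These lines share no libraries, and windows are not independent replicates, so the values are descriptions. By chromosome, the lines with R172H moved apart on chromosome 14 (down in the male, up in the female line) and the lines with Y202C on chromosome 4 (up in the male, down in the female line).

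Of 67 cancer genes known for copy changes in tumours, 64 were measured. Male p53 R172H had 16 of them higher and 19 lower (all genes tested 20.2% and 20.5%), in male p53 Y202C 28 and 23 (37.6% and 35.4%), and in male p53 Y217C 17 and 30 (34.9% and 35.6%). In female p53 R172H 15 were higher and 39 lower (34.4% and 35.3%), in female p53 Y202C 18 and 32 (34.3% and 34.3%), and in female p53 Y217C 18 and 19 (28% and 28.7%). The median log2 fold change of the list was -0.25 in female p53 R172H and between -0.16 and 0.05 in the other lines. The largest change on the list in female p53 R172H, named after its value was seen, was that of Pdgfra, a growth factor receptor of glial precursors, on chromosome 5 at 165 ± 14.1 against 3.09 ± 0.871 CPM. Its window was at -0.16 and was not shifted.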

How the data were processed

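The authors aligned reads with STAR 2.5.1a and counted them per gene with featureCounts. The deposited values are raw counts of 14427 genes in 24 libraries, on GRCm38, and whether counting used strand was not given in the sources used here. Of these genes 14350 were placed by GENCODE M21 and 77 were not. CPM were computed here with TMM factors (edgeR 4.0.16 in R 4.3.3), and 0.1 CPM was added before log2. Window and chromosome medians of the libraries were fitted with limma 3.58.1 (8 line means, 24 libraries), the 2 p53 KO lines with their 6 libraries, and genes with edgeR's quasi-likelihood test, with Benjamini-Hochberg adjustment throughout. The replicates are platings of 1 culture, so p-values measure only the spread between them. A segment is a run of 3 or more neighbouring windows shifted the same way, skipping windows with too few genes. It is a description without a test. Beside the edges of a step, which were chosen after their values were seen, the named genes are Trp53, cancer genes in a described shifted chromosome or segment, and for each of these the 2 genes of highest expression, the 2 of largest change with its direction and the 2 of largest change against it (each library of the higher line at 10 counts or above). Some genes that this rule names are not reported here. Named windows are the 3 largest rises and falls of each line. The members and lists were chosen with earlier results of these data known. The fits were tested on simulated data. Alternatives were DESeq2 1.42.0, other scalings, pseudocounts, windows and sizes, and leaving out each replicate. Figures were drawn with matplotlib 3.10.9.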

Additional observations from a re-analysis of the deposited data

Results flagged for a closer look

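Effects of the same mutation on a chromosome median differed between the male and the female culture by 0.3 or more, with a limma test of the difference itself (Benjamini-Hochberg over 57 tests), in 6 cases. As male minus female, R172H differed by -0.56 on chromosome 14 (-0.31 and 0.25, adjusted p = 3.53e-22). Y202C differed by 0.58 on chromosome 4 (0.29 and -0.30, adjusted p = 2.24e-22), by -0.31 on chromosome 6 (-0.10 and 0.21, adjusted p = 1.02e-15) and by -0.30 on chromosome 12 (-0.16 and 0.14, adjusted p = 3.05e-13). Y217C differed by 0.34 on chromosome 1 (-0.15 and -0.49, adjusted p = 6.85e-17) and by 0.43 on chromosome 14 (-0.02 and -0.45, adjusted p = 2.36e-19). In all 6 cases the 3 libraries of the male line did not overlap with the 3 of the female line. This follows from the choice of cases by size, since libraries of a mutant line differed by at most 0.0913 on a chromosome. Each line is 1 derivation, so mutation, culture and derivation cannot be told apart.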

How the results depend on the processing

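The main counts of shifted windows were 19, 121, 71, 75, 77 and 82 (male p53 R172H, Y202C and Y217C, then the female lines in that order). A size of 0.2 in place of 0.3 gave 72, 205, 138, 148 and 146 in the first 5 lines, and a size of 0.5 gave 1, 34, 22, 19, 19 and 34. Windows of 10 Mb gave 6, 50, 24, 30, 28 and 36, as there are fewer of them. Summed CPM of a window in place of the median gave 39 in male p53 R172H, 139 in male p53 Y217C, 139 in female p53 R172H and 121 in female p53 Y202C, with 14 differences between cultures in place of 6. A pseudocount of 1 gave 7 in male p53 R172H. Protein-coding genes alone gave 5 whole chromosomes in place of 3. A pseudocount of 1, summed CPM and 1 gene per symbol stem gave 2 each, without chromosome 19 in male p53 Y202C, and plain library sizes gave 3, with chromosome 14 of male p53 R172H in place of that of female p53 Y217C. The cause of these changes was not tested. Leaving out each replicate gave 17 to 22, 119 to 128, 61 to 75, 71 to 79, 72 to 80 and 78 to 82 shifted windows, 3 whole chromosomes each time and 5 to 8 differences between cultures. It gave 13 to 15 shifted windows between the p53 KO lines. Called autosomal genes then numbered 4618 to 5334, 9631 to 9795, 9103 to 9363, 9000 to 9400, 8898 to 9309 and 7012 to 7379. The fits with a replicate block gave 19, 121, 71, 75, 77 and 83 shifted windows, 3 whole chromosomes, 6 differences between cultures and 4562, 9447, 8907, 9546, 9390 and 7713 genes, and changed no other call. The numbers did not pair the samples, since the correlation of same-numbered libraries was over 0.1 in 4 of 18 pairs (-0.213 to 0.319) and 8 of 18 libraries correlated best with their own number. Of 391 alternatives for 23 chromosome medians, 390 kept direction and side of the threshold, and 1, chromosome 1 in male p53 Y217C at -0.045 with plain library sizes, lost its call. Counts without chromosome 8, steps by gene, gene fits without a replicate and the splits and chromosome medians by scaling were chosen after seeing the data.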
